A study of Tribolium castaneum with 183 samples.

Results

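The 50 genes described here were the drought-raised genes of *Tribolium castaneum*, the red flour beetle, that stood higher in dry than in humid air both at the control temperature and in heat. They were chosen by their measured values in the same females: among the 8756 genes whose average over all females reached 5 cpm (counts of a gene per 1000000 counts of the library), each gene's mean log2 cpm in Dry minus Control and in Hot-Dry minus Hot was taken, and the 50 genes with the highest smaller difference were kept. The whole table held 17078 genes. RNA of whole females of the strain Cro1, which was taken from a wild population and has since been kept in the laboratory, was sequenced, with 1 library per female. There were 48 females in Dry (33°C, 30% relative humidity), 43 in Hot-Dry (37°C, 30%), 45 in Hot (37°C, 70%) and 47 in Control (33°C, 70%), all placed in their condition as eggs and kept there until they were frozen after a fitness assay. Their age is 8 weeks in the labels and higher in the results section of the study, and it enters no comparison. The females came from 12 full-sib families, which were read from the leading number in the name of a female, with 3 or 4 females per family and condition. According to the methods, the females of 1 family in 1 condition shared a vial of origin. They are therefore not independent cultures, and a p-value from a test over females treats them as if they were.

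Drought confronts a beetle with water loss across the cuticle, in breathing and with the faeces. Flour beetles hold water back with a waterproof cuticle and with a hindgut and Malpighian tubule complex, in which ion transporters drive the uptake of water from the gut contents, and they take up food and break it down with secreted carbohydrases and peptidases in the midgut. Glycosidases cut the bonds between sugar units in starch, plant wall polymers or chitin, the polymer of the insect cuticle and of the lining of the midgut. In whole-body RNA, a higher level of a gene may come from more cells of 1 type or from more RNA per cell, and these cannot be told apart here.

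Between 4873334 and 15533288 counts per female fell on genes, with a median of 8893822, at which 3 counts make 0.337 cpm. The yolk precursor genes Vg1 (TC013602) and Vg2 (TC010839) were detected in every female. The median was 71291 cpm in Hot-Dry against 92562 cpm in Hot for Vg1, and 46097 against 63365 cpm for Vg2. Between Dry and Control, the medians were 107345 and 103446 cpm for Vg1 and 79233 and 82221 cpm for Vg2. For Vg1, the lowest female had 295 cpm in Hot-Dry, 3398 cpm in Hot, 45395 cpm in Dry and 15422 cpm in Control. For Vg2, the lowest female had 290 cpm in Hot-Dry, 1839 cpm in Hot, 35698 cpm in Dry and 9872 cpm in Control. Detection alone therefore does not tell whether each female was reproducing. The germ line genes vasa (TC010103) and piwi (TC008711) were also detected in all females. The part of the lower yolk precursor level in the Hot-Dry values below was not tested.

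The drought differences that chose the members ran from 1.82 in TC007314 down to 0.393 in TC008280, with a median of 0.579, as the smaller of both differences on the log2 scale. Over the 8756 eligible genes the median was -0.02. The median member was 0.62 higher in Dry than in Control and 0.71 higher in Hot-Dry than in Hot, where the eligible genes had medians of 0.0071 and -0.00098. In mean log2 cpm, the difference was the larger one at 37°C in 31 members. The interaction of drought and heat, fitted to the counts with edgeR's quasi-likelihood method, was above 0 in 23 members with a median of -0.02, so that both scales gave no common direction. It was called in 0 members (0.00826% of all genes tested, that is 1 gene), and 1 member had an unadjusted p under 0.05. DESeq2 also called 0 members. The interaction is made of the differences that chose the members, and nothing is read from it. The last members inside the threshold were TC009626 (0.433), TC005437 (0.394) and TC008280 (0.393), and the first genes outside it were TC009452 (0.393), TC004941 (0.389) and TC011390 (0.384), so that the lowest members and the first non-members had nearly the same values. These values are a description, since they made the choice.

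**Figure D1:**
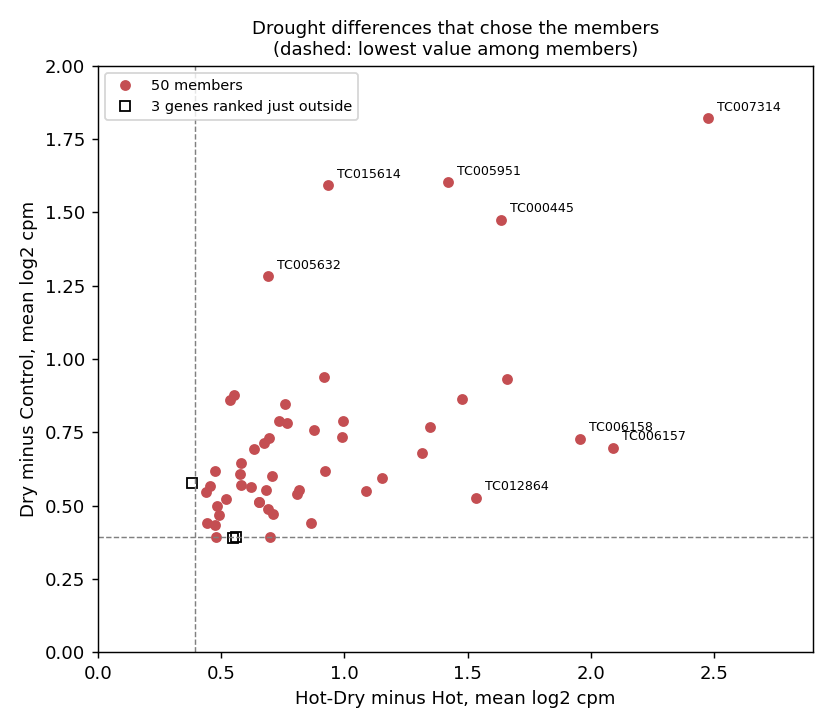
Difference in mean log2 cpm between Hot-Dry and Hot (horizontal axis) and between Dry and Control (vertical axis) for the 50 members (points) and the 3 genes ranked just outside (open squares), with dashed lines at the lowest value among members, 0.393. TC007314 has the highest value on both axes, and 5 members lie above 1 on the vertical axis and 12 on the horizontal one.

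The edgeR quasi-likelihood test with Benjamini-Hochberg adjustment over 12113 genes called 18 members higher in Dry than in Control, where it called 0.421% of all genes tested higher. It called 20 members higher in Hot-Dry than in Hot, where 0.991% of all genes were called higher. All 50 members were tested, 11 were called in both comparisons and 23 in neither, and none was called lower. The rule used these same comparisons, and nothing is read from these counts. They also depend on the fit. In another fit, counts were summed per family and condition, which leaves 1 value for each vial of origin, and family terms were added. There, 2 members were called higher in Dry (TC007314 and TC000445) and 6 in Hot-Dry (TC007314, TC000445, TC015617, TC012519, TC010048 and TC012864). Over all genes, that fit called 0.0248% higher in Dry and 0.206% higher in Hot-Dry. In the fit over females, 11 members were called in Dry without family 348. In Hot-Dry, 13 were called without family 638 and 12 without family 710. The shares over all genes fell too, to 0.248% in Dry without family 348. In Hot-Dry they fell to 0.537% without family 638 and to 0.504% without family 710.

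TC007314 had the highest rule value. Its lowest, median and highest level was 0.442, 6.80 and 57.0 cpm in Dry females, against 0, 1.28 and 14.1 cpm in Control females. In Hot-Dry females these values were 2.89, 32.1 and 91.1 cpm, against 0, 4.74 and 35.7 cpm in Hot females. The conditions overlapped, but 41 of 48 Dry females lay above the Control median and 13 above the highest Control female, and a Hot-Dry female was the higher one in 88.1% of all pairs with a Hot female. The family mean was higher in Dry than in Control and higher in Hot-Dry than in Hot in all 12 families. The family differences ran from 0.40 (family 293) to 3.80 (family 799) between Dry and Control and from 0.14 (family 103) to 4.27 (family 638) between Hot-Dry and Hot, on the log2 scale.

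TC000445 was the only other member that was higher in all 12 families at both temperatures. It had 2.62, 15.5 and 40.4 cpm (lowest, median and highest) in Dry females, against 0.741, 5.99 and 19.8 cpm in Control females. Hot-Dry females had 5.82, 25.9 and 121 cpm, against 0.946, 7.78 and 29.2 cpm in Hot females. Its families lay closer together than those of TC007314, with differences between 0.52 and 2.68 in Dry and between 0.87 and 3.52 in Hot-Dry. A Dry female was higher in 86.4% of the pairs with a Control female and a Hot-Dry female in 89.7% of the pairs with a Hot female, and both were the largest shares among the 50 members.

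TC005951 was the most abundant member, with a mean of 1337 cpm over all females. Dry females had 25.8, 573 and 4052 cpm (lowest, median and highest) and Control females 18.5, 143 and 1641 cpm. Hot-Dry females had 618, 2183 and 6059 cpm, against 60.1, 1281 and 3426 cpm in Hot females. The lowest Hot-Dry female thus lay above the medians of Dry and Control. The families did not move alike, since the family mean was higher in Dry in 9 of 12 families, with 6.21 in family 348 and -1.83 in family 710, and higher in Hot-Dry in 9 of 12, with 4.86 in family 710 and -0.63 in family 1077. The deposited files and the supplement give TC007314, TC000445 and TC005951 no name or function.

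**Figure D2:**
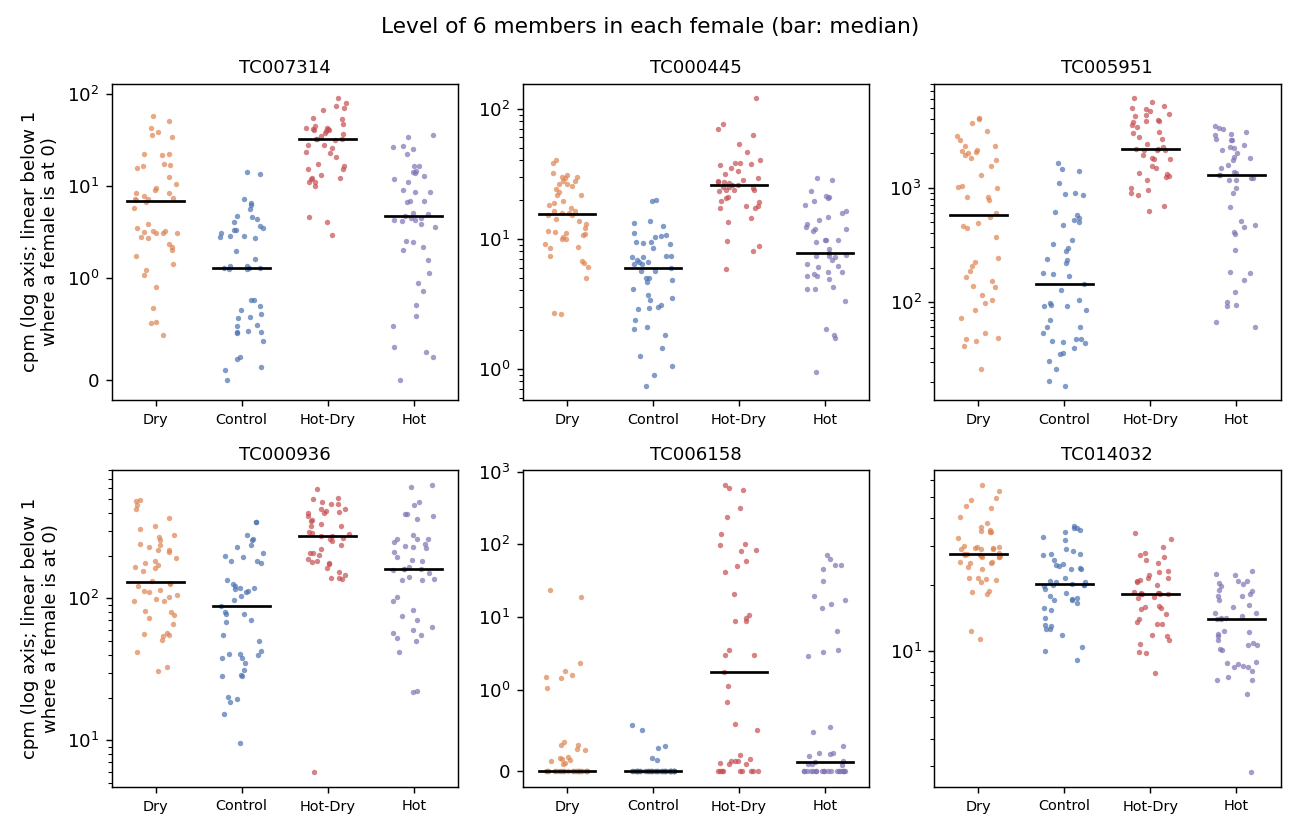
Level of 6 members in each female (points) by condition, in cpm on a log axis that is linear below 1 for genes with a female at 0, with the median as a bar. The conditions overlap in every gene: the median of TC007314 is 6.80 cpm in Dry and 1.28 cpm in Control, 32.1 cpm in Hot-Dry and 4.74 cpm in Hot, TC006158 is at 0 in most Control females, and TC014032 has its lowest median, 13.9 cpm, in Hot.

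A gene ontology (GO) term was printed in the study's supplement for 26 of the 50 members. These terms come from lists of genes that the study had found differentially expressed (DE) in these same females, and some lists are shortened, so the terms favour genes that respond and are no independent evidence of a function. The term carbohydrate metabolic process was carried by 13 members, among them all 10 members with the term for hydrolases acting on glycosyl bonds. Among the 47 eligible genes of the glycosyl hydrolase list, the median difference was 0.09 between Dry and Control and 0.23 between Hot-Dry and Hot. Of these genes, 31 (66.0%) were above 0 in both, and 34.6% of all eligible genes were. The 31 include the 10 members, which the rule places above 0, so these values are set in part by the choice and nothing is read from them. Without the members, 0 of 44 tested genes of this list were called higher in Dry and 6 lower, and 2 were called higher and 6 lower in Hot-Dry. Leaving out the members takes the highest genes by the rule from the list, which lowers the number of higher calls. The members were thus the upper end of a list with calls in both directions.

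5 of the carbohydrate genes had close identifiers, TC000936, TC000937, TC000938, TC000939 and TC000943, of which the last has no glycosyl hydrolase term. TC000936 had 30.9, 131 and 493 cpm (lowest, median and highest) in Dry females, against 9.54, 88.1 and 346 cpm in Control females, and 5.92, 277 and 587 cpm in Hot-Dry females, against 22.0, 162 and 633 cpm in Hot females. TC000938, the most abundant of the 5, averaged 239 ± 178 cpm in Dry (SD, n = 48) and 229.5 ± 234 cpm in Control (SD, n = 47), so its mean level was nearly the same, and only its mean log2 cpm was 0.55 higher. In Hot-Dry it averaged 496 ± 239 cpm (SD, n = 43), against 358 ± 241 cpm in Hot (SD, n = 45). Its Control values included both the lowest female, at 7.16 cpm, and one at 1013 cpm. How reads that match several genes were counted is not stated, and if these genes are near-identical copies, their separate values are uncertain.

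TC009017 and TC009018, also glycosyl hydrolases by their terms and with consecutive identifiers, were low and reached 0 in all conditions. TC009017 had 0, 7.11 and 24.7 cpm in Dry females, against 0, 3.32 and 31.7 cpm in Control females, and 0, 14.6 and 108 cpm in Hot-Dry females, against 0, 5.92 and 105 cpm in Hot females. TC009018 had medians of 1.35 cpm in Dry and 0.492 cpm in Control, and of 3.21 cpm in Hot-Dry and 1.13 cpm in Hot. The highest female was in Control for TC009017 at 33°C, which shows how far the groups overlapped. TC009626, the one member with the term chitinase activity, an enzyme that cuts chitin, stood just inside the threshold. Its medians were 7.92 cpm in Dry and 7.82 cpm in Control, and 28.4 cpm in Hot-Dry and 18.6 cpm in Hot, so that the medians were nearly equal at 33°C and apart at 37°C. The fitted interaction of drought and heat was 0.31 in this gene (SE 0.37, unadjusted p = 0.403 in the edgeR quasi-likelihood test), and it was not called.

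Peptidase terms, for enzymes that cut proteins, were printed for 4 members. TC004027, with a metallopeptidase term, had 3.66, 29.1 and 62.2 cpm (lowest, median and highest) in Dry females, against 4.04, 14.7 and 46.1 cpm in Control females, and 11.3, 41.6 and 88.3 cpm in Hot-Dry females, against 3.61, 19.7 and 85.7 cpm in Hot females. It was higher in 10 families in Dry and in 11 in Hot-Dry, and it was the peptidase with the highest rule value. TC008504, with a serine-type endopeptidase term, had medians of 205 cpm in Dry and 126 cpm in Control, and of 348 cpm in Hot-Dry and 255 cpm in Hot. The other peptidases were TC015617 and TC000665. TC000665 had the same median of about 6.5 cpm in Dry (6.54) and Control (6.58), and a Dry female was the higher one in 56.1% of the pairs with a Control female, the lowest share among the members. TC015617 was higher in Hot-Dry than in Hot in all 12 families and in Dry in 8.

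Transport terms were printed for 5 members, TC005437, TC005439, TC007068, TC014032 and TC015480. TC015480 had 0, 2.79 and 16.5 cpm (lowest, median and highest) in Dry females, against 0, 1.31 and 8.99 cpm in Control females, and 0.378, 9.05 and 43.0 cpm in Hot-Dry females, against 0.113, 3.51 and 28.6 cpm in Hot females. TC005439 had medians of 3.86 cpm in Dry and 3.31 cpm in Control, and of 14.2 cpm in Hot-Dry and 7.75 cpm in Hot. TC014032 is the one member with the term active ion transmembrane transporter activity, carried by proteins that move ions across a membrane at the cost of energy. It had 11.3, 27.5 and 56.8 cpm in Dry females, against 9.11, 20.2 and 37.0 cpm in Control females, and 7.97, 18.2 and 34.4 cpm in Hot-Dry females, against 2.81, 13.9 and 23.0 cpm in Hot females. Its spread within conditions was among the smallest of the members, with an SD of 0.52 on the log2 scale, and it was higher in 9 families in Dry and in all 12 in Hot-Dry. TC007068 was higher in all 12 families in Dry and in 8 in Hot-Dry, at medians of 17.8 cpm in Dry and 12.7 cpm in Control.

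The supplement lists 6 active transmembrane transporter genes, which the study chose on these females and which are no independent evidence. All 6 were called higher in Dry, 2 were called higher in Hot-Dry, and TC014032 was the one member among them. TC000573 just missed the threshold at rank 54, with a difference of 0.38 in Dry and 0.52 in Hot-Dry. TC001253, TC030633, TC008606 and TC005388 had differences between 0.24 and 0.41 in Dry and between 0.08 and 0.21 in Hot-Dry, on the log2 scale.

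TC016344, TC016347 and TC016350 carried the term viral capsid, the protein shell of a virus, in a list of 8 genes of which 7 have consecutive identifiers. TC016344 had 9.96, 67.9 and 235 cpm in Dry females, against 3.07, 38.5 and 750.1 cpm in Control females, and 18.9, 154 and 381 cpm in Hot-Dry females, against 10.6, 65.8 and 610.3 cpm in Hot females. The highest value of each pair of conditions was thus in humid air, although the medians were higher in dry air. TC016350, the most abundant of them, had medians of 185 cpm in Dry and 189.9 cpm in Control, and of 396 cpm in Hot-Dry and 326 cpm in Hot. Of the 5 eligible genes of the list, the 3 members are above 0 in both differences by the rule. The other eligible genes, TC016348 and TC016349, were above 0 in both too, as were 34.6% of all eligible genes. None of the 8 was called in either drought comparison.

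The remaining members named here have no function in the sources used. TC015614 had medians of 16.1 cpm in Dry and 4.60 cpm in Control, and of 9.47 cpm in Hot-Dry and 4.57 cpm in Hot, and it was higher in 10 families at each temperature. TC014229 and TC014231, with identifiers 2 apart, were both higher in dry air. TC014229 had medians of 20.3 cpm in Dry and 11.7 cpm in Control, and of 37.5 cpm in Hot-Dry and 22.3 cpm in Hot. TC014231 had medians of 5.43 cpm in Dry and 3.87 cpm in Control, and of 10.5 cpm in Hot-Dry and 6.35 cpm in Hot. TC005431 had a median of 9.86 cpm in Dry and 5.64 cpm in Control, and of 16.1 cpm in Hot-Dry and 7.37 cpm in Hot. All 4 genes overlapped widely between conditions. TC008280, with the lowest rule value, had a within-condition SD of 0.50 on the log2 scale, below the median of the members. It had 10.4, 25.1 and 44.5 cpm in Dry and 8.15, 18.0 and 36.9 cpm in Control, and it was higher in 11 families at each temperature.

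TC006158 and TC006157, with consecutive identifiers, were the only members whose Control median lay under 0.337 cpm. TC006158 was at 0 in 28 of 48 Dry females and in 41 of 47 Control females, and in 9 of 43 Hot-Dry females and in 19 of 45 Hot females. Its highest female reached 23.4 cpm in Dry and 0.560 cpm in Control, and 662 cpm in Hot-Dry and 71.1 cpm in Hot. A few females carried the counts: the 5 highest females held 88.1% of the summed cpm in Dry and 93.0% in Control, and 76.6% in Hot-Dry and 71.0% in Hot. TC006157 had medians of 0.231 cpm in Dry and 0.121 cpm in Control, and of 4.35 cpm in Hot-Dry and 0.484 cpm in Hot, with a highest female of 936 cpm in Hot-Dry. The family means of TC006158 were higher in Hot-Dry than in Hot in 7 of 12 families, and the largest difference, 7.04, was in family 348. Several of its medians lie under the 0.337 cpm that 3 counts make, and no fold change is read from them.

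The heat contrast was not part of the differences that chose the members, but the minimum of 5 cpm was taken over the females of both temperatures. TC015480, TC009018, TC005439, TC006158, TC006157, TC005441 and TC015789 averaged under 5 cpm at 33°C and passed only through the 37°C females, and TC009643 averaged under 5 cpm at 37°C, so a heat difference of these 8 genes was in part set by the choice. The question was whether the genes that stood higher in dry air also differed between 37°C and 33°C, and it was answered with the mean of Hot-Dry and Hot against the mean of Dry and Control. Of the 50 members, 37 were called higher with heat, against 22.3% of the 12113 genes tested, and 6 were called lower, against 22.5%. The other 7 were not called. The median heat log2 fold change was 0.73 over the members and -0.01 over all genes tested, and 15 members exceeded 1, as did 1.30% of all genes tested. Without the 8 genes that reached 5 cpm at 1 temperature only, 30 of 42 members were called higher and 5 lower, and 8 exceeded 1. Among the 8610 genes that reached 5 cpm at both temperatures, 19.9% were called higher, 26.0% lower, and 0.627% exceeded 1. With the counts summed per family and condition, 32 members were called higher, against 19.6% of all genes in that fit, and 4 lower, against 19.7%. The 7 members that lost their call there were TC015614, TC005431, TC016218, TC015789, TC008357, TC007068 and TC009643. In Hot-Dry, where both stressors were present, 43 of 50 members had their highest mean log2 cpm, and 44 had their lowest in Control, an order that the choice of the members by drought sets in part. The 50 genes with the strongest lowering in dry air at both temperatures, chosen by the same rule with the sign turned round, held 17 called higher with heat and 4 called lower.

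**Figure D3:**
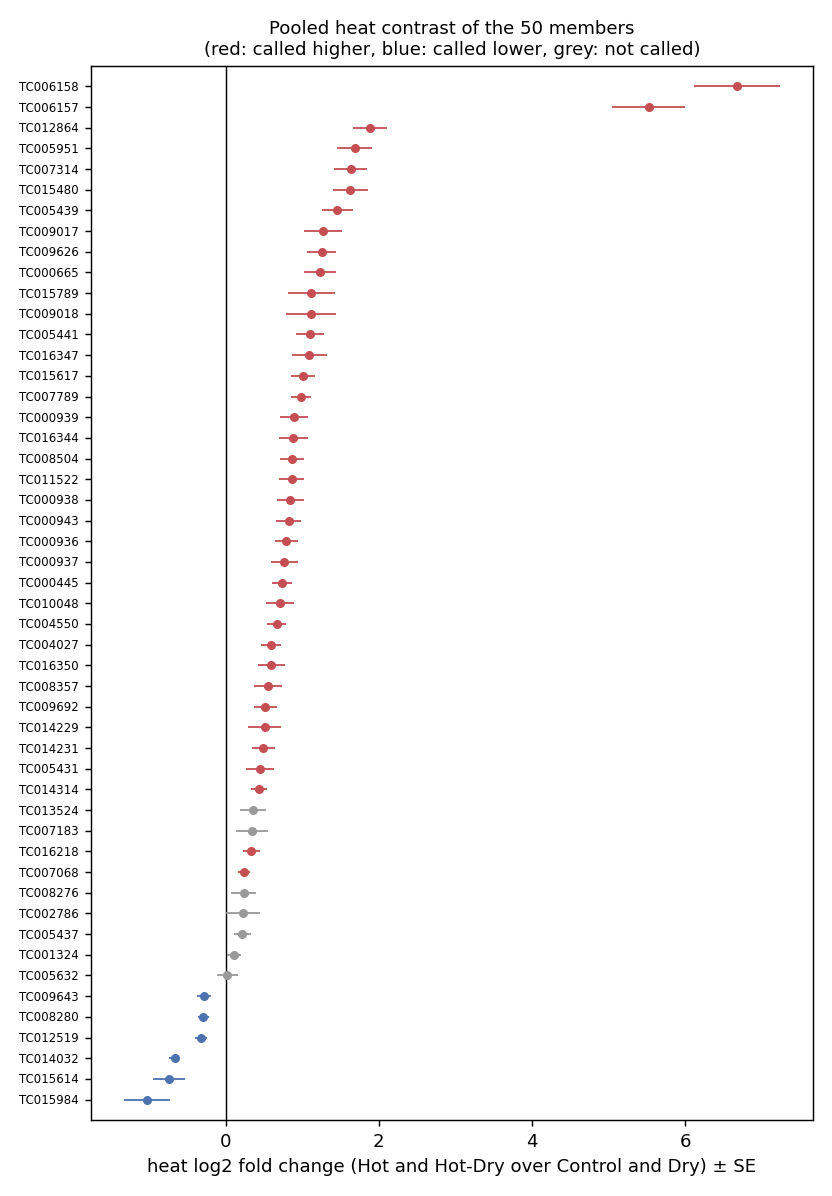
Heat log2 fold change (Hot and Hot-Dry over Control and Dry) of each of the 50 members with its standard error, from edgeR's quasi-likelihood fit, with genes called higher in red, lower in blue and not called in grey. There are 37 red, 6 blue and 7 grey points, with TC015984 lowest at -1.03. The 2 points at the upper right, TC006158 and TC006157, are genes that averaged only 0.592 and 1.23 cpm at 33°C.

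TC006158 and TC006157 averaged 0.592 and 1.23 cpm at 33°C. Their fitted heat fold changes depend on the treatment of counts near 0 and on a few females with high counts, so they are not ranked. They also passed the minimum through the 37°C females. Among the members that reached 5 cpm at both temperatures, the highest heat fold change was that of TC012864 (log2 fold change 1.88, SE 0.22, adjusted p = 1.97e-13, edgeR quasi-likelihood test). TC012864 averaged 66.8 ± 74.9 cpm in Hot-Dry (SD, n = 43) and 28.0 ± 41.4 cpm in Hot (SD, n = 45), against 12.0 ± 10.6 cpm in Dry (SD, n = 48) and 11.03 ± 20.5 cpm in Control (SD, n = 47). TC005951 rose by 1.69 with heat (SE 0.23, adjusted p = 2.34e-10) and TC007314 by 1.63 (SE 0.22, adjusted p = 1.35e-10). TC000445 rose by 0.74 (SE 0.14, adjusted p = 1.9e-06). All 4 of these genes thus stood higher with heat, in addition to the drought difference in mean log2 cpm that chose them. For TC012864, that difference was 0.53 at 33°C, but the fitted log2 fold change between Dry and Control was only 0.09 (SE 0.30).

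Among the classes, 9 of the 10 glycosyl hydrolase members were called higher with heat, and TC008276 was not called (log2 fold change 0.24, adjusted p = 0.244). All 4 peptidases and all 3 viral capsid members were called higher. The lists they come from were made of genes DE in these females, and outside the members 35 of 44 tested glycosyl hydrolases, 89 of 95 peptidases and 5 of 5 viral capsid genes were called higher too. Such shares were thus also found outside the members. Of the transport members, TC015480 (1.63), TC005439 (1.46) and TC007068 (0.24, but not called with summed counts, adjusted p = 0.0758) were called higher with heat, TC014032 was called lower, and TC005437 was not called (0.22, adjusted p = 0.0949).

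6 members were lower with heat but higher in dry air. TC014032, the ion transporter, fell by 0.66 with heat (SE 0.08, adjusted p = 4.76e-14) and had the smallest adjusted p among these. TC015614 fell by 0.74 (SE 0.21, adjusted p = 0.0022, but 0.0823 with summed counts) and TC015984 fell by 1.03 (SE 0.30, adjusted p = 0.00255). TC015984 had medians of 6.10 cpm in Hot-Dry and 4.43 cpm in Hot, against 20.7 cpm in Dry and 7.01 cpm in Control, and its 5 highest females held 56.7% of the summed cpm in Hot-Dry. TC012519 fell by 0.32, TC008280 fell by 0.29 and TC009643 fell by 0.28, of which TC009643 was not called with summed counts (adjusted p = 0.0726). Hot-Dry females had a lower mean log2 cpm than Control females in TC014032 and TC015984 and in no other member.

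Families were not used by the rule either, except through the condition means. In a fit of condition and family, 47 of 50 members were called different between families, but so were 92.7% of all genes tested, and the members' share is close to this background. The 3 members not called were TC015614, TC005431 and TC007068. With summed counts, 26 members were called, where 77.0% of all genes were, so that the members' share lay below the background of that fit. Of the variance that remained within conditions, the means of the families in each condition took a median of 54.9% in the members and 53.05% in all eligible genes, where 24.6% would be taken by the number of groups alone. Their spread was wide: the standard deviation within a condition had a median of 1.26 on the log2 cpm scale, against 0.31 for all eligible genes. The 50 drought-lowered genes, which were chosen in the same way, had a median of 1.15.

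The drought difference itself varied between families. The median over the 50 members was above 0 in Dry in 11 of 12 families and reached 2.00 in family 348, but it was -0.59 in family 863, where 14 of 50 members were higher in Dry. In heat, the median reached 2.01 in family 638 but was -0.17 in family 432 and -0.01 in family 1077. Family 863 was above 0 in heat (0.50), and families 432 and 1077 were above 0 at the control temperature (1.13 and 0.75). Single members were higher in Dry in 6 to 12 families and in Hot-Dry in 7 to 12, and 14 members reached at least 10 families in Dry, 24 in Hot-Dry.

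Since these families also made the choice, the rule was run again without 1 family at a time, and the 50 genes so chosen were read in the family left out. The lists shared 41 to 47 genes with the members. In the family left out, the median difference over the 50 genes had a median of 0.49 between Dry and Control and was above 0 in 9 of 12 families, with a range from -0.99 (family 863) to 1.73 (family 348). Between Hot-Dry and Hot it had a median of 0.42 and was above 0 in 10 of 12 families, with a range from -0.27 (family 432) to 1.93 (family 638). Both were above 0 in 7 families. For comparison, the median over all eligible genes lay between -0.01 and 0.04 in Dry and between -0.03 and 0.02 in Hot-Dry. The 12 lists overlap, and these values are a description without a test.

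**Figure D4:**
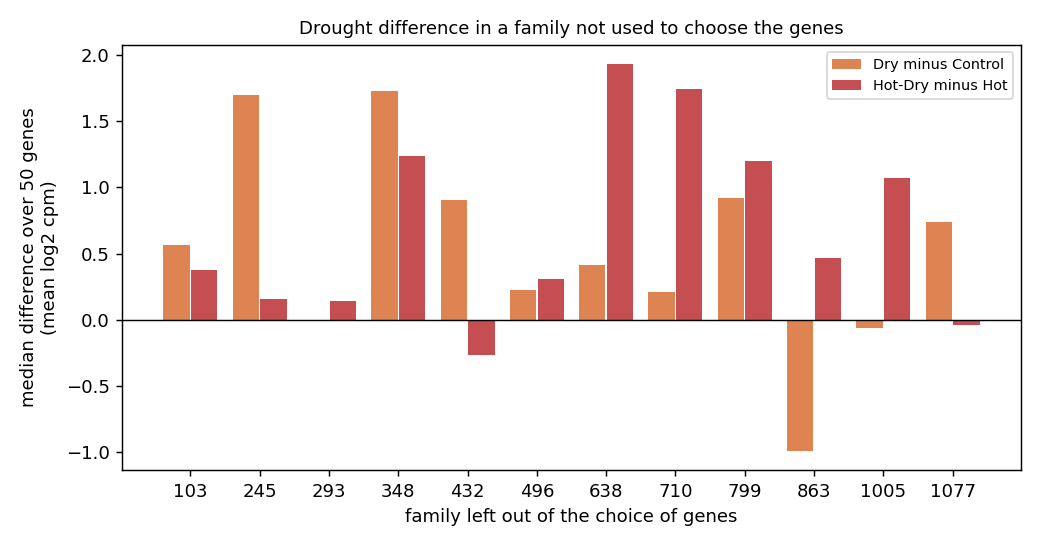
Median difference over 50 genes in mean log2 cpm for Dry minus Control (orange) and Hot-Dry minus Hot (red) in each of 12 families, with the genes chosen on the other 11 families. The bars are above 0 in 9 families for Dry and in 10 for Hot-Dry, with the lowest bar at -0.99 in family 863 and the highest at 1.93 in family 638.

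Members varied together between females of the same condition. After the condition means were taken out, the Pearson correlation over all females had a median of 0.25 over the 1225 pairs of members, with 15.5% of pairs above 0.5, against -0.0016 and 6.53% over all pairs of eligible genes. Among the 50 drought-lowered genes, chosen by the same rule with the sign turned round, the median was 0.03, with 8.98% of pairs above 0.5. The points share families and libraries, and the genes were chosen in these same females. How much of the likeness comes with that choice was not tested. With the mean of each family in each condition taken out, the median was 0.15 over members and -0.00035 over eligible genes, so that part of the likeness lay between families. A clustering of the members by 1 minus r, cut at 0.6, gave a group of 21 genes with a median correlation of 0.53, which held the 5 carbohydrate genes from TC000936 to TC000943, the 3 viral capsid members, all 4 peptidases and the transport genes TC015480 and TC005439. Of these 21 genes, 18 were called higher with heat and none lower. Over the 50 members these counts were 37 and 6, and over all genes tested the shares were 22.3% and 22.5%. TC015480, TC005439 and TC005441 of this group passed the minimum of 5 cpm only through the 37°C females.

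The closest pairs had near identifiers: TC000939 and TC000938 (r = 0.97), TC006158 and TC006157 (0.95), TC000936 and TC000943 (0.94) and TC000936 and TC000937 (0.94). Reads shared between similar genes would give such a likeness too, and this was not tested. Other pairs were far apart in their identifiers, such as TC011522, with an oxidation-reduction term, and TC004550, with a carbohydrate term (0.88). TC011522 and TC004550 formed a second group with TC005951, TC014229 and TC014231. All 5 were called higher with heat, as were 37 of the 50 members and 22.3% of all genes tested. TC009017 and TC009018 correlated less (0.51), although their identifiers are consecutive. TC007314 and TC000445, the members with the highest rule values, joined no group. In all, 22 members had another member within 10 identifiers, and 8 had one at the next identifier.

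**Figure D5:**
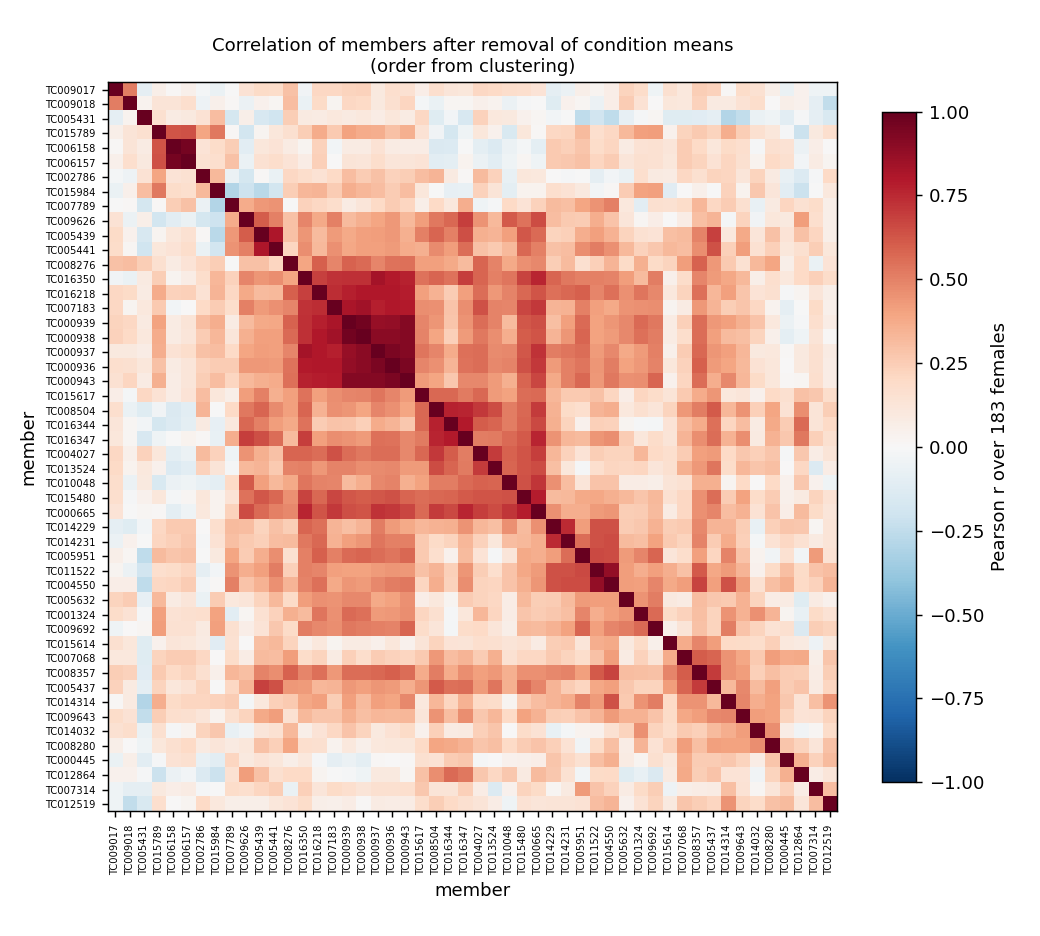
Pearson correlation over all females between the 50 members after removal of the condition means, in the order of the clustering, from -1 (blue) to 1 (red). A dark block holds TC000936 to TC000943, whose pairs reach 0.97, within the group of 21 genes, and TC006158 with TC006157 forms a small block at 0.95.

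The mean log2 level over all members, with each gene centred on its own mean, summarised each female. It had a lowest, median and highest value of -1.43, 0.09 and 1.49 in Dry females, against -2.36, -0.77 and 0.33 in Control females, and of -1.02, 0.84 and 1.73 in Hot-Dry females, against -1.51, -0.03 and 1.55 in Hot females. The females of all 4 conditions overlapped. Dry and Hot females had nearly the same median, and Hot-Dry females had the highest. That Dry lay above Control and Hot-Dry above Hot follows from the choice of the genes.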

How the data were processed

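The authors deposited 1 table with the number of reads counted per gene in each female, as raw counts without normalization. According to their methods and processing notes, reads were trimmed, mapped with STAR 2.5 to the Tcas3 assembly and counted with featureCounts; the handling of strand and of reads with several hits is not given in the sources used here. All columns were mapped to a condition through their labels. Counts were normalized by the trimmed mean of M-values (TMM), and log2 cpm used a prior count of 2. A gene was kept for testing if 5 or more females exceeded 0.5 cpm, which left 12113 genes, and these were fitted with edgeR 4.0.16 (quasi-likelihood, 1 mean per condition, Benjamini-Hochberg adjustment, threshold 0.05) in R 4.3.3. The test's log2 fold changes follow mean counts and can differ from differences of mean log2 cpm, which follow the typical female. A standard error is the log2 fold change over the square root of F. Levels of different genes are in cpm and are not scaled by gene length. Floors and shares cover counting error only.

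The members and lists were chosen with earlier results of these data known. Genes are named when they are among the 15 highest rule values, the 3 just inside or outside the threshold, the 5 highest in mean cpm, or the 3 highest or lowest in the heat contrast. Other members are named for a printed GO term, for a neighbouring identifier or as an exception to a count, after their values were seen. Lists by RefSeq product name could not be used, because the reference table used here holds neither the TC identifiers nor product names. For the same reason, no sequence is shown. Procedures were tested on simulated counts, drawn independently for each female. Only the simulation for the family test held differences between families, so the others do not cover a likeness of females from 1 vial. Alternatives were relative log expression normalization, no filter on low counts, a replicate block, counts summed per family and condition, DESeq2 1.42.0, leaving out each family and, chosen after seeing the data, library size as a covariate and leaving out members under 5 cpm at 1 of the temperatures.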

Additional observations from a re-analysis of the deposited data

How the results depend on the processing

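With counts summed per family and condition, which leaves 48 values, the members called numbered 26 in place of 47 for families (77.0% in place of 92.7% of all genes), 2 in place of 18 for Dry against Control and 6 in place of 20 for Hot-Dry against Hot. Here the number of samples falls by the construction of the alternative. For the heat and drought comparisons, family terms were added as well, and the part of each change was not tested. When families were left out in turn (12 fits), the count ranged from 32 to 37 for higher with heat, from 5 to 6 for lower with heat, from 43 to 47 for families, from 11 to 22 for Dry and from 12 to 23 for Hot-Dry. The shares over all genes in these fits ranged from 0.248% to 0.561% for Dry and from 0.504% to 1.31% for Hot-Dry. Relative log expression normalization, no filter, DESeq2 and the library size covariate kept every count of members within 1.5 times the reported one. Numbers recur in the female names across conditions, and what they stand for is not explained in the sources used. Between conditions, females with the same number had a mean correlation of 0.191 over 261 pairs. Females of 1 family with other numbers had 0.196. No pairing by number was seen in these means, but they cannot exclude one. With the replicate block of 48 numbers, 36 members were called higher with heat, 6 lower, 19 higher in Dry and 28 higher in Hot-Dry. Over all genes, the block gave 198 calls higher in Hot-Dry in place of 120, and summed counts gave 3 in place of 51 for Dry and 25 in place of 120 for Hot-Dry.

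The rule kept 50 members with relative log expression, 48 with a prior count of 0.5, 49 with family means, 40 with a minimum of 1 cpm, 37 with medians and 41 to 47 without 1 family. The median correlation of members fell to 0.149 when family and condition means were removed, in place of 0.247; the family share it loses is removed by construction. Leaving out the members under 5 cpm at 33°C or 37°C, an alternative chosen after seeing the data, gave 30 calls higher and 5 lower with heat. Of 156 values of the heat change of 26 named genes under 6 alternatives, none reversed and 4 lost their call: TC015614 and TC005431 with summed counts (adjusted p = 0.0823 and 0.174), TC014229 without the filter (0.0578) and TC005431 with the block (0.0507). Over all 50 members, 7 heat calls were lost with summed counts. The depth limits what can be said of genes near 0.337 cpm, such as TC006158 and TC006157 at 33°C.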
